A study of Rattus norvegicus with 218 samples.

Results

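The left and the right dorsal motor nucleus of the vagus (DMV) were compared in rats that had no operation. The members are the samples whose condition label reads left or right DMV of a naive rat and that had a threshold cycle (Ct, the qPCR cycle at which a product crosses the detection line) in at least 42 assays, which is 25% of the panel. They number 81, 42 from the left and 39 from the right, out of 186 samples that met the same minimum in the whole series. The series holds 218 columns of microfluidic RT-qPCR on neurons that were stained for NeuN and taken by laser capture, and it compares naive animals with animals after sham surgery or remote ischemic preconditioning (RIPC, tying off the femoral vessels of both hind limbs for a time and then letting blood return). All animals were male Sprague Dawley rats, no age is given in the labels, and every animal had brief isoflurane before decapitation. Naive rats had neither this occlusion nor the anesthesia and exposure of the vessels that the sham rats had. The RIPC rats were sampled 2.5 hours after reperfusion. The sham rats, whose vessels were not tied, were sampled after the same survival period.

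The DMV is a paired column of brainstem neurons whose axons run in the vagus nerve to the stomach, gut, heart and other organs. Most of its projection neurons are cholinergic and express Chat, which makes acetylcholine, and Ache, which breaks it down. Local GABA neurons express Gad1 or Gad2, and the adjoining nucleus of the solitary tract and the DMV itself hold catecholamine neurons that use Th and Dbh. The vagal branches of the 2 sides differ in part of their targets, so that the sides are not interchangeable anatomically. Receptors on these neurons read serotonin, orexin, leptin, oxytocin and other signals from the forebrain, the hindbrain and the blood.

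The naive samples came from 3 animals and were spread unevenly. Animal N3 gave 33 left samples (27 single neurons and 6 pools of 4 to 5 cells) and 32 right samples (27 single neurons and 5 pools of 2 to 6 cells). Animal N2 gave 7 left samples, 5 of them pools, and 6 right samples, 5 of them pools. Animal N1 gave 2 left pools and 1 right pool, so it did not have 2 samples on each side and stood outside the tests. A comparison over animals therefore rested on N2 and N3. An exact two-sided sign-flip test over 2 animals cannot go below p = 0.5, whatever the size of the difference. Samples of one animal share that animal and are not replicates of the side.

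The number of assays with a Ct, on which the samples were chosen, is given as a description. In N3 the left samples had 47 to 149 assays with a Ct (mean 79.4 ± 22.3, SD, n = 33) and the right samples 46 to 121 (mean 76.8 ± 18.8, n = 32). In N2 the left samples had 45 to 104 (mean 75.9 ± 23.2, n = 7) and the right samples 59 to 98 (mean 81.5 ± 17.4, n = 6). The 2 left pools of N1 had 47 and 120 assays, and its right pool had 48. Averaged over N2 and N3, left minus right was -1.48 assays. Without the minimum the left mean was the higher in all 3 animals, 83.5 against 43.0 in N1, 68.0 against 65.9 in N2 and 75.1 against 72.7 in N3. The pools of N3 also had means close to each other, 100.5 on the left and 98.6 on the right, as did its single neurons, 74.7 and 72.7. In N3, 1 left and 2 right samples were averaged over 2 runs, in which 72.0 to 73.8% of the assays gave the same call.

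**Figure D1:**
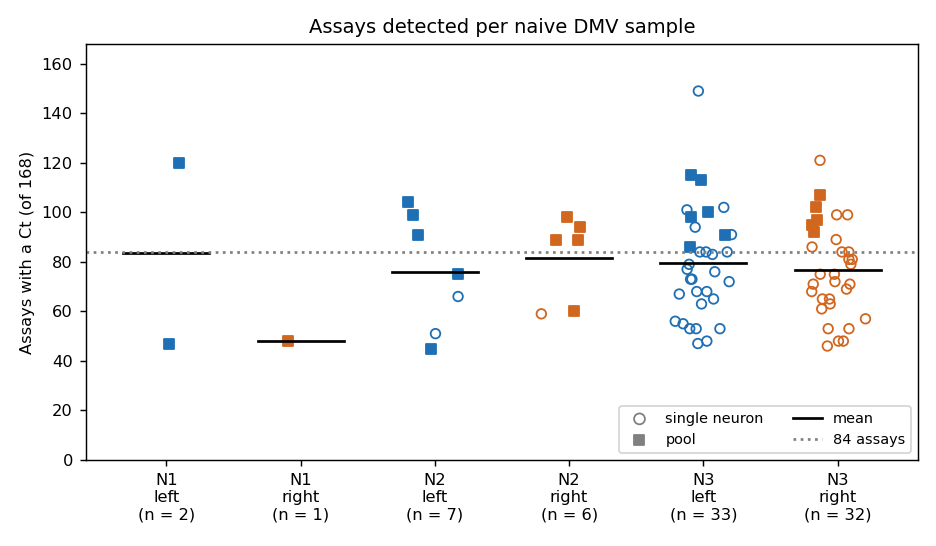
Number of assays with a Ct in each kept naive sample, by animal and side; open circles are single neurons, filled squares are pools, black bars are means, and the dotted line is at 84 assays. In N3 the left samples span 47 to 149 assays and the right samples 46 to 121.

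Neuronal markers had a Ct in most samples of both sides. Camk2a, a kinase of excitatory and many other neurons, had a Ct in 32 of 33 left and 31 of 32 right samples of N3, and in 7 of 7 and 5 of 6 samples of N2. Ache had a Ct in 31 of 33 left and 31 of 32 right samples of N3. Gfap, the defining astrocyte transcript, had a Ct in 27 of 33 left and 24 of 32 right samples of N3, and in 5 of 7 left and 6 of 6 right samples of N2. Thus an astrocyte transcript was present in most captured samples of both sides. Per the study's methods, each capture cap was inspected and any that held a cell other than a neuron was set aside. The part of Gfap transcript in the differences below was not tested. Markers of microglia and oligodendrocytes were not on the panel.

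No gene passed the test of left against right. Of 124 genes with a Ct in 10 to 95% of the naive samples, limma called 0% for the share of samples with a Ct at an adjusted p of 0.05 (smallest adjusted p = 0.951). At an unadjusted p of 0.05 there were 2, Cck and Nppc. The level of a detected transcript is its -dCt, the cycles by which it came up earlier than the sample's median over 35 widely detected genes. Of 99 genes with a level on both sides of N2 and N3, limma called 0% for the level (smallest adjusted p = 0.470), and 3 had an unadjusted p under 0.05. The left share was the higher one for 57 of the 124 genes and the right share for 67, and the median difference was -1.86 percentage points. These numbers describe 2 animals, and a gene with a wide gap in share can still miss the threshold. The standard errors of the differences named here ran from 13.7 to 15.3 percentage points. The fit gave N2 and N3 equal weight although N3 held 65 samples and N2 held 13. With animals weighted by their samples, 13 genes had an unadjusted p under 0.05 and 0 passed (smallest adjusted p = 0.206).

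Lepr, which reads the fat hormone leptin, had a Ct in 10 of 33 left samples of N3 (30.3%, 95% Wilson interval 17.4 to 47.3%) and in 0 of 32 right samples, which allows a share of up to 9.38% (taken as 3 counts of the total, as for the other counts of 0). The difference was 30.3 percentage points with a Newcombe interval of 13.5 to 47.3, which, like the other intervals over samples, covers counting error only. Both kinds of sample showed it in N3, with 8 of 27 left against 0 of 27 right single neurons, and 2 of 6 left against 0 of 5 right pools. In N2 Lepr had a Ct in 2 of 7 left and 1 of 6 right samples, and in N1 in 1 of 2 left pools and not in the right pool. N1 adds little here, since its only right pool had 48 assays and, over all 165 genes, its left share was the larger for 77 and its right share for 28. Of the other genes with a Ct in 0 of 32 right samples of N3, Npr1 had one in 6 of 33 left samples, Grp in 5 and Oprd1 in 4, and in N2 Npr1 had a Ct in 0 of 7 left and 1 of 6 right samples. The level of Lepr in the 10 samples of N3 ran from -2.88 to 0.70 cycles (mean -1.36 ± 1.18, SD). The mean difference over N2 and N3 was 21.1 ± 15.2 percentage points (SE, limma adjusted p = 0.951).

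Lepr detection went with the number of assays a sample gave. The 10 left samples of N3 with Lepr had 77 to 149 assays (median 92.5), and the 23 without it had 47 to 115 (median 68). Right samples of N3 of the same yield had no Lepr. Among N3 samples with at least 84 assays, Lepr had a Ct in 9 of 14 on the left and in 0 of 12 on the right. In N2 it was 2 of 3 against 0 of 4, the single right sample with Lepr having 60 assays. With the minimum set at 84 assays the left minus right difference was 65.5 ± 8.91 percentage points, and Lepr became the one gene of 108 that limma called (adjusted p = 0.0336). That fit held N2, N3 and the 5 operated animals with 2 such samples on each side. One of the 9 left samples of N3 reached 84 assays only because a Ct in either of its 2 runs was counted, its runs having 83 and 75. Lepr's own Ct also counted toward the minimum. Left samples of N3 with Lepr and exactly 84 assays met it only with Lepr counted. A minimum that leaves Lepr out of the count was not tested. With first runs only, the counts in N3 were 8 of 13 and 0 of 11, and Lepr was again the one gene called, of 107 (64.1 ± 8.15 percentage points, limma adjusted p = 0.0243). With 1 naive animal left out, the difference stayed as large and the call was lost, 64.3 ± 11.3 percentage points without N2 (limma adjusted p = 0.435) and 66.7 ± 12.2 without N3 (limma adjusted p = 0.373). Each of those fits holds 1 naive animal, whose spread is taken from the operated ones. At a minimum of 63 assays the difference was 39.2 percentage points and was not called (limma adjusted p = 0.952).

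**Figure D2:**
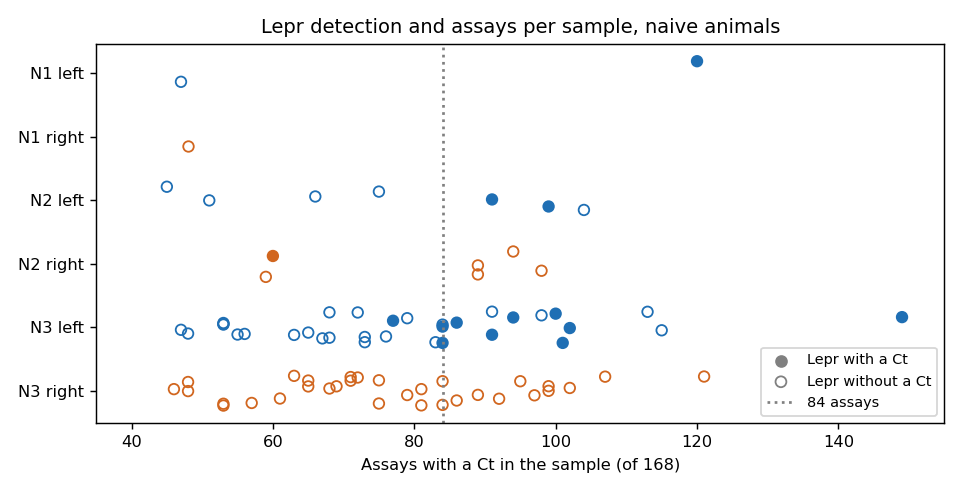
Each point is a kept naive sample placed by its number of assays with a Ct, in rows by animal and side; filled points had a Ct for Lepr and open points had none, and the dotted line is at 84 assays. At 84 or more assays, 9 of 14 left and 0 of 12 right samples of N3 are filled.

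Most of the left samples of N3 with Lepr also had Chat, with a Ct in 8 of 10 and in 12 of the 23 left samples without Lepr. Th, which makes the precursor of dopamine and noradrenaline, had a Ct in 7 of the 10 and in 12 of the 23. Dbh, which turns dopamine into noradrenaline, had a Ct in 5 of the 10 and 10 of the 23. Chrna7, a nicotinic receptor subunit, had a Ct in 10 of 10 and 13 of 23. Gfap, the astrocyte transcript, had a Ct in 10 of 10 and 17 of 23, and Cartpt in 2 of 10 and 11 of 23. The samples with Lepr also had the higher yields given above, and the part of yield and of Gfap detection in these counts was not tested.

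In the operated animals at the minimum of 42 assays, the left share of Lepr was the larger in 1 sham and 1 RIPC animal, the right in 1 and 1, and the shares were equal in the rest. Over the 4 sham animals the left and right counts were 0 of 6 and 2 of 8, 2 of 7 and 2 of 7, 4 of 8 and 2 of 4, and 6 of 12 and 3 of 10. Over the 3 RIPC animals they were 1 of 6 and 1 of 6, 3 of 12 and 3 of 6, and 4 of 6 and 1 of 7. The mean difference over these 7 animals was 3.20 ± 26.8 percentage points (SD). The naive difference exceeded that of the operated animals by 17.2 ± 17.2 percentage points, with each surgery weighted equally (limma adjusted p = 0.987), so a change with surgery was not detectable. At the minimum of 84 assays the left share was the larger in 4 of the 5 operated animals with 2 samples on each side, by 50, 66.7, 16.7 and 16.7 percentage points, and equal in SHAM3. The naive difference exceeded the operated one there by 30.8 ± 10.6 percentage points (limma adjusted p = 0.604).

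Among cholinergic genes, Chat had the smaller share on the left. It had a Ct in 20 of 33 left and 28 of 32 right samples of N3 (60.6% against 87.5%, difference -26.9, Newcombe interval -45.4 to -5.5), and in 5 of 7 and 5 of 6 samples of N2. The gap in N3 lay in the single neurons, 14 of 27 against 23 of 27, since all of its pools had Chat. Over both animals the difference was -19.4 ± 14.3 percentage points (limma adjusted p = 0.951). It was -10.7 at the minimum of 84 assays, with 11 of 14 against 12 of 12 in N3 and no difference in N2 (3 of 3 against 4 of 4). In N3 samples with a Ct, Chat was also at a lower mean level on the left, -0.18 ± 1.69 cycles (SD, n = 20) against 0.72 ± 0.86 (n = 28). N2 went the other way, -0.37 ± 0.42 (n = 5) on the left and -1.25 ± 0.72 (n = 5) on the right. The levels of Ache likewise had opposite signs in N3 (-0.79 cycles) and N2 (0.65). Among operated animals, the left share of Chat was the larger in 3 of 4 sham animals and the right share in 0. In the 3 RIPC animals the left share was the larger in 0 and the right share in 2. Left minus right was 22.6 ± 21.7 percentage points (SD) in sham and -12.7 ± 18.0 in RIPC animals. The naive and operated differences were not distinguishable (-24.3 ± 16.3 percentage points, limma adjusted p = 0.987).

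Chrna7, whose product passes calcium on binding acetylcholine, followed Chat in its shares. It had a Ct in 23 of 33 left and 30 of 32 right samples of N3 and in 5 of 7 and 5 of 6 samples of N2, a mean difference of -18.0 ± 15.3 percentage points (limma adjusted p = 0.951). With at least 84 assays the counts were 12 of 14 and 12 of 12 in N3 and 3 of 3 and 4 of 4 in N2, which shrank the difference to -7.14 percentage points. Over the 8 acetylcholine receptors on the panel, 5 had the larger share on the left in N3 and 3 on the right, with a median of 1.89 percentage points, beside 0.0947 over all 165 genes. In the fit the 7 tested were split 5 and 2, with a median of 8.48, and none was called. Chat and Ache both had the larger share on the right, with a median of -14.0 percentage points in the fit beside -1.86 over all genes tested.

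Of the GABA synthesis genes, Gad1 had a Ct in 15 of 33 left and 9 of 32 right samples of N3 and in 4 of 7 and 3 of 6 of N2. Gad2 had a Ct in 17 of 33 and 12 of 32 in N3 and in 5 of 7 and 4 of 6 in N2. The differences in the fit were 12.2 ± 14.9 and 9.39 ± 14.9 percentage points (limma adjusted p = 0.951 for both), within 1 SE. At least one of Gad1 and Gad2 was found in 18 of 33 left and 13 of 32 right samples of N3 and in 5 of 7 and 5 of 6 of N2, a mean difference of 1.01 percentage points (exact sign-flip p = 1). In single neurons of N3, Gad1 or Gad2 without Chat was found in 10 of 27 on the left (37.0%, Wilson interval 21.5 to 55.8%) and in 4 of 27 on the right (14.8%, 5.9 to 32.5%). Chat without either Gad was found in 11 of 27 and 18 of 27. Both transmitter systems together were found in 3 of 27 left and 5 of 27 right single neurons. The intervals of the sides overlap for each of these 3 classes, and N2 has too few single neurons (2 left and 1 right) to set beside them.

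Dbh had the largest difference in share within N3, and N2 had the opposite order. It had a Ct in 15 of 33 left samples of N3 (45.5%, Wilson interval 29.8 to 62%) and 4 of 32 right samples (12.5%, 5.0 to 28.1%), in single neurons (10 of 27 against 2 of 27) and pools (5 of 6 against 2 of 5) alike. Where detected in N3, Dbh was at -0.28 ± 2.28 cycles on the left (SD, n = 15) and at -2.25 ± 2.79 on the right (n = 4). In N2 it had a Ct in 1 of 7 on the left and 3 of 6 on the right. The mean over both animals was -1.38 ± 15.2 percentage points (limma adjusted p = 0.951). All 4 sham animals had the larger share on the left, for example 8 of 12 against 1 of 10 in SHAM4, while 1 of 3 RIPC animals did. The difference of the naive from the operated animals was -14.9 ± 17.3 percentage points (limma adjusted p = 0.987).

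Th had a Ct in 19 of 33 left and 18 of 32 right samples of N3 and in 5 of 7 and 5 of 6 samples of N2. At the minimum of 84 assays its left share was the larger in both animals, 11 of 14 against 6 of 12 in N3 and 3 of 3 against 3 of 4 in N2. Th together with Dbh was found in 10 of 33 left and 2 of 32 right samples of N3, and in 1 of 7 and 3 of 6 of N2, the opposite order. Chat with Th was found in 15 of 33 and 16 of 32. The dopamine receptor Drd2, an inhibitory receptor, had a Ct in 17 of 33 left and 10 of 32 right samples of N3 and in 5 of 7 and 3 of 6 of N2, which gave 20.8 ± 14.0 percentage points (limma adjusted p = 0.951). Over the 7 dopamine and adrenergic receptors, 4 had the larger share on the left in N3 and 3 on the right, with a median of 3.03 percentage points. In the fit over both animals the 6 tested were split 2 and 4, with a median of -7.70, and none was called. Adra1a, an excitatory noradrenaline receptor, lay on the right, with 22 of 33 against 25 of 32 in N3 and 5 of 7 against 6 of 6 in N2 (-20.0 ± 13.7, limma adjusted p = 0.951).

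Hcn4, a pacemaker channel opened by hyperpolarization, had the larger share on the right in both animals. It had a Ct in 17 of 33 left and 26 of 32 right samples of N3 (51.5% against 81.2%, Newcombe interval of the difference -48.8 to -6.7) and in 2 of 7 and 3 of 6 samples of N2. Hcn4 was among the genes chosen for a large difference in N3, and the interval is not adjusted for that choice. The difference held in single neurons of N3 (13 of 27 against 21 of 27) and in its pools (4 of 6 against 5 of 5). Over both animals it was -25.6 ± 13.8 percentage points (limma adjusted p = 0.951). In the operated animals the right share was the larger in all 3 RIPC animals, and in the sham animals it was larger in 1, smaller in 1 and equal in 2. The naive and operated differences were not distinguishable (-11.4 ± 15.6 percentage points, limma adjusted p = 0.987). Of the 11 HCN, potassium, sodium and TRP channels, 5 had the larger share on the left in N3 and 6 on the right, with a median of -3.60 percentage points, and the 9 tested in the fit were split 4 and 5 (median -2.79).

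Over all 165 genes the left share was the larger in N3 for 84, the right for 73, and 8 were equal, which is the background of the list counts in that animal. Of the 10 serotonin receptors on the panel, 7 had the larger share on the left in N3 and 3 on the right, with a median of 14.8 percentage points beside 0.0947 over all genes. In the fit over both animals it was 5 against 4 of the 9 tested, with a median of 3.70, and none was called. Htr7, a receptor that raises cyclic AMP, had a Ct in 12 of 33 left and 4 of 32 right samples of N3 and in 4 of 7 and 2 of 6 samples of N2. These gave nearly equal differences of 23.9 and 23.8 percentage points (23.8 ± 13.7 in the fit, limma adjusted p = 0.951). Htr2c had a Ct in 11 of 33 left and 4 of 32 right samples of N3 but in 2 of 7 and 3 of 6 of N2.

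Cck, the precursor of cholecystokinin, had the smallest p of all genes tested by share, with a Ct in 0 of 7 left samples of N2 and 4 of 6 right samples, but in 9 of 33 and 10 of 32 samples of N3 (-35.3 ± 14.7 percentage points, limma adjusted p = 0.951). Nppc, which encodes C-type natriuretic peptide, had a Ct in 4 of 7 left and 0 of 6 right samples of N2 and in 9 of 33 and 5 of 32 samples of N3 (34.4 ± 14.9, limma adjusted p = 0.951). A count of 0 among 7 or 6 samples allows a share of up to 42.9 or 50% by the limit of 3 counts. Trpv1, the capsaicin-sensitive channel, had the same shape as Cck, 1 of 7 against 4 of 6 in N2 and 5 of 33 against 6 of 32 in N3. Cartpt, a peptide of feeding circuits, had a Ct in 13 of 33 left and 18 of 32 right samples of N3 and in 5 of 7 and 5 of 6 of N2. Over the 13 neuropeptides and secreted factors the median in N3 was 0 percentage points, with 6 on the left, 5 on the right and 2 equal. In the fit the 8 tested were split 3 and 5, with a median of -11.9 beside -1.86 over all genes tested, and none was called.

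By share, Nppc was also the one gene with an unadjusted p under 0.05 between naive and operated animals. Its left share was the larger in N2 and N3, and its right share was the larger in all 3 RIPC animals and in 2 of 4 sham animals. The naive difference exceeded the operated one by 46.5 ± 17 percentage points (limma adjusted p = 0.987). Of the 124 genes, 0% were called for this contrast of shares, and of the 90 genes with enough levels 0% were called for the contrast of levels (2 at an unadjusted p of 0.05, Drd2 and Galr1, smallest limma adjusted p = 0.215).

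In samples with at least 84 assays, 3 left and 4 right of them from N2, several of the differences in share changed by more than 1.5 times with the same sign and none of them was called. Hcn4 was at -14.9 percentage points and Adra1a at -7.14, both smaller in size. Gad1 was at 40.5, Gad2 at 19.0, Htr7 at 37.5, Nppc at 54.8, IL6r at 13.1, Trpv1 at -44.0 and Hcrtr1 at -20.8, all larger in size. Cck was at -29.2, the difference in N3 then lying on the left (7 of 14 against 4 of 12) and that in N2 on the right (0 of 3 against 3 of 4).

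**Figure D3:**
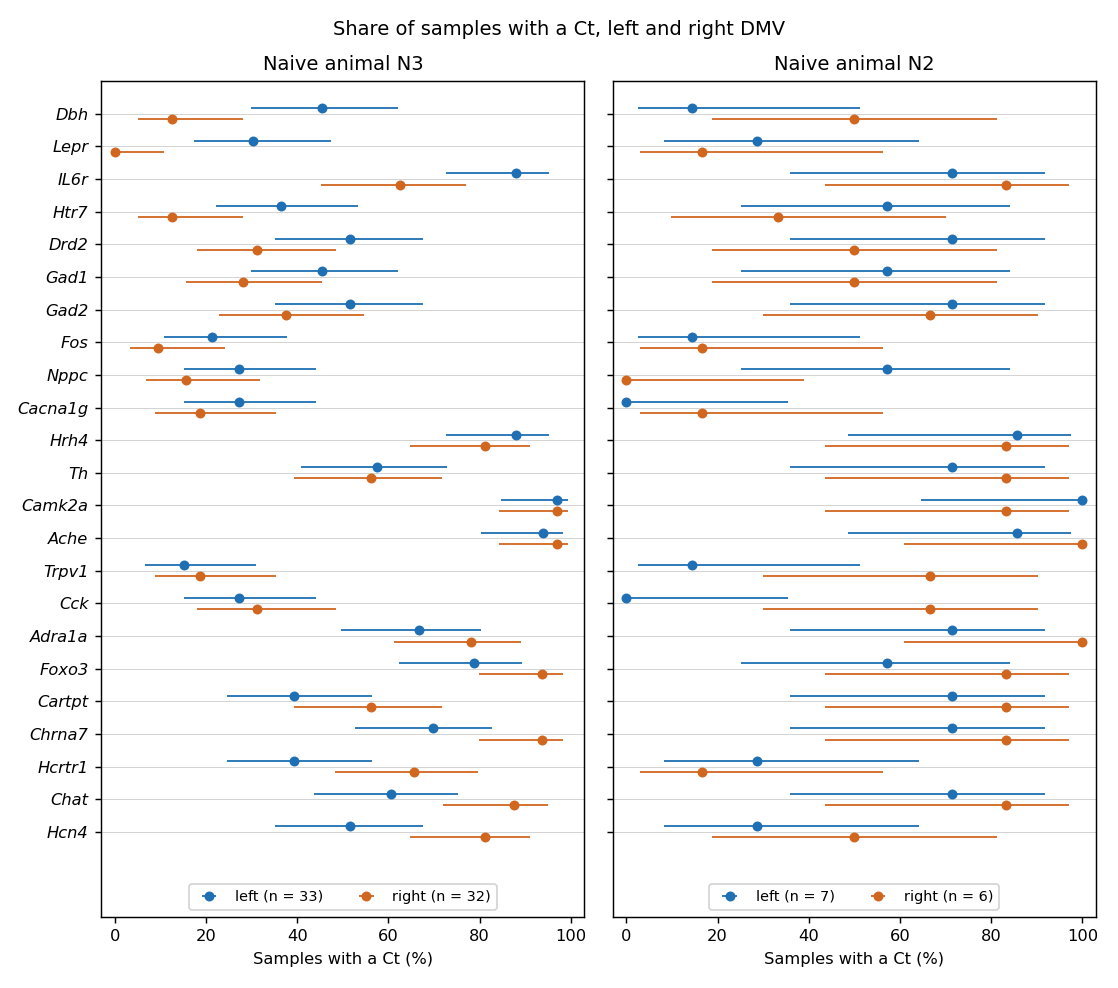
Share of samples with a Ct on the left (blue) and right (orange) in naive animals N3 and N2 for the genes named by share and the fixed genes, with 95% Wilson intervals as bars, ordered by the difference in N3. In N3 Dbh is at 45.5% (left) and 12.5% (right), and in N2 at 14.3% and 50%.

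Hcrtr1, a receptor for orexin, had a Ct in 13 of 33 left and 21 of 32 right samples of N3, and in 2 of 7 and 1 of 6 samples of N2. IL6r, the interleukin-6 receptor, had a Ct in 29 of 33 left and 20 of 32 right samples of N3, a gap found in the single neurons (23 of 27 against 15 of 27) and not in the pools, all of which had it. In N2 it had a Ct in 5 of 7 and 5 of 6. The counts of IL6r in N3 samples with at least 84 assays were 13 of 14 and 11 of 12, a difference of 1.19 percentage points beside 25.4. Foxo3, a stress-responsive transcription factor, had the larger share on the right in both, 26 of 33 against 30 of 32 and 4 of 7 against 5 of 6 (-20.6 ± 14.0 percentage points, limma adjusted p = 0.951). Every sample with at least 84 assays had Foxo3 in N2 and N3, so the difference there was 0. Hrh4, a histamine receptor, differed little, with 29 of 33 against 26 of 32 and 6 of 7 against 5 of 6.

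Fos, the immediate early gene that marks recent activity, was sparse in naive animals. It had a Ct in 7 of 33 left (21.2%, Wilson interval 10.7 to 37.8%) and 3 of 32 right samples of N3 (9.4%, 3.2 to 24.2%), and in 1 of 7 and 1 of 6 samples of N2. The difference was 4.73 ± 15.2 percentage points (limma adjusted p = 0.951). The T-type calcium channel Cacna1g had a Ct in 9 of 33 and 6 of 32 samples of N3 and in 0 of 7 and 1 of 6 of N2. Of the 8 calcium channel subunits on the panel, 3 had the larger share on the left in N3 and 5 on the right, with a median of -1.52 percentage points, and the 6 tested in the fit were split 1 and 5 (median -5.70). Of the 13 activity and stress transcription factors, 10 had the larger share on the left and 3 on the right, with a median of 3.79, while in the fit the 10 tested were split 5 and 5.

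In N3 alone, of 6 GABA receptor subunits 1 had the larger share on the left and 5 on the right, with a median of -9.00 percentage points, while in the fit over both animals 3 lay on each side. Also in N3, of 10 gut hormone and leptin receptors 6 lay on the left and 4 on the right (median 3.31), and of 19 other peptide receptors 11 and 8 (median 4.45). In the fit these lists were split 4 and 3 (median 2.99) and 9 and 8 (median 0.16). Histamine receptors were split 2 and 2 in N3, and 3 and 1 in the fit. In N3, of the 5 pan-neuronal genes, 2 lay on the left and 3 on the right (median -2.56), while the 3 tested in the fit all lay on the right. In N3, of the 4 reference genes 1 lay on the left and 2 on the right, with 1 equal (median -1.52). None of their tested members was called, beside 0 of 124 over all genes tested.

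**Figure D4:**
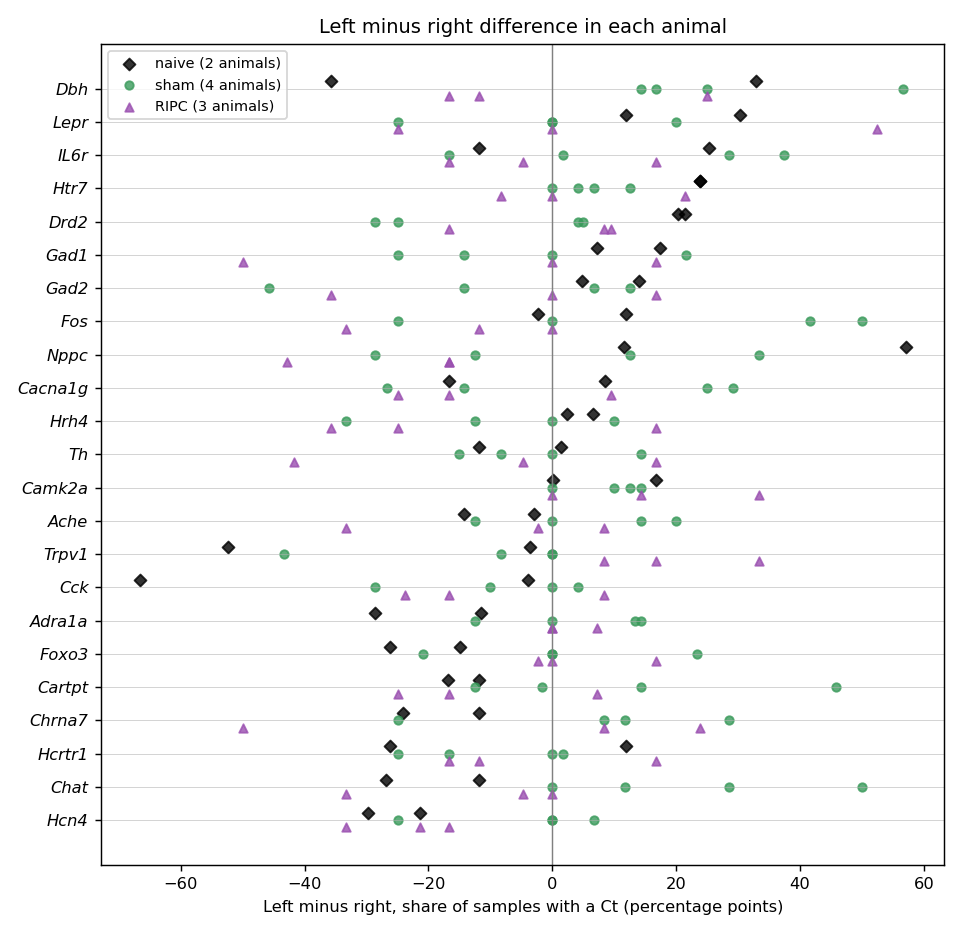
Left minus right share of samples with a Ct, in percentage points, for each animal with at least 2 samples on each side: naive (2 animals, diamonds), sham (4, circles) and RIPC (3, triangles). Points outside the range of the operated animals are those of N2 for Cck (-66.7), Nppc (57.1), Trpv1 (-52.4), Dbh (-35.7), Adra1a (-28.6) and Foxo3 (-26.2), that of N3 for Hcrtr1 (-26.2), and those of both N2 and N3 for Drd2 (21.4 and 20.3) and Htr7 (23.8 and 23.9).

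Where both sides had a Ct, the smallest p-values belonged to Htr2c, a serotonin receptor, and Drd2. Htr2c was at 0.46 and 0.55 cycles in the 2 left samples of N2 and at -5.23, -0.68 and 0.43 in its 3 right samples. In N3 the 11 left samples ran from -2.66 to 3.06 (median 0.22) and the 4 right samples were at -2.16, -2.14, -1.51 and -0.74. The left mean was the higher in both animals, and the sides overlapped in N3 but not in N2. The difference was 2.10 ± 0.51 cycles (SE, limma adjusted p = 0.470).

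Drd2 had a larger difference and a larger scatter. In N2 its 5 left samples ran from -2.45 to 2.31 cycles (median -0.54) and its 3 right samples were at -9.85, -5.26 and 0.51. In N3 the 17 left samples ran from -7.03 to 2.01 (median 0.13) and the 10 right samples from -10.2 to 1.92 (median -0.49). The 2 lowest right samples of N3 were at -10.2 and -8.97, and the sides overlapped in both animals. The difference was 2.99 ± 0.93 cycles (limma adjusted p = 0.472). The right mean was the higher in 6 of the 7 operated animals, and left minus right over all 7 was -1.24 ± 1.41 cycles (SD). The naive difference exceeded the operated one by 4.34 ± 1.06 cycles (limma adjusted p = 0.215).

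Of the other genes ranked by level, Crebbp, a coactivator of CREB, was higher on the left by 1.99 cycles in N2 and 0.41 in N3 (1.20 ± 0.52, limma adjusted p = 0.981). Galr1, a galanin receptor, was higher on the left by 1.32 and 0.88 cycles (1.10 ± 0.63, limma adjusted p = 0.981). Oxtr, the oxytocin receptor, was higher on the right by 1.30 and 0.86 cycles, a difference of -1.08 ± 0.53 (limma adjusted p = 0.981), with 1 left sample of N3 at -11.6 and 1 of N2 at -6.73. Htr6 was at -2.65 and -2.38 cycles in the 2 left samples of N2 and at -9.81, -7.73 and -1.80 in the 3 right ones, while in N3 the sides spanned nearly the same range, -10.5 to -2.81 on the left and -9.02 to -2.34 on the right. Its difference was 2.29 ± 1.20 cycles (limma adjusted p = 0.981).

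**Figure D5:**
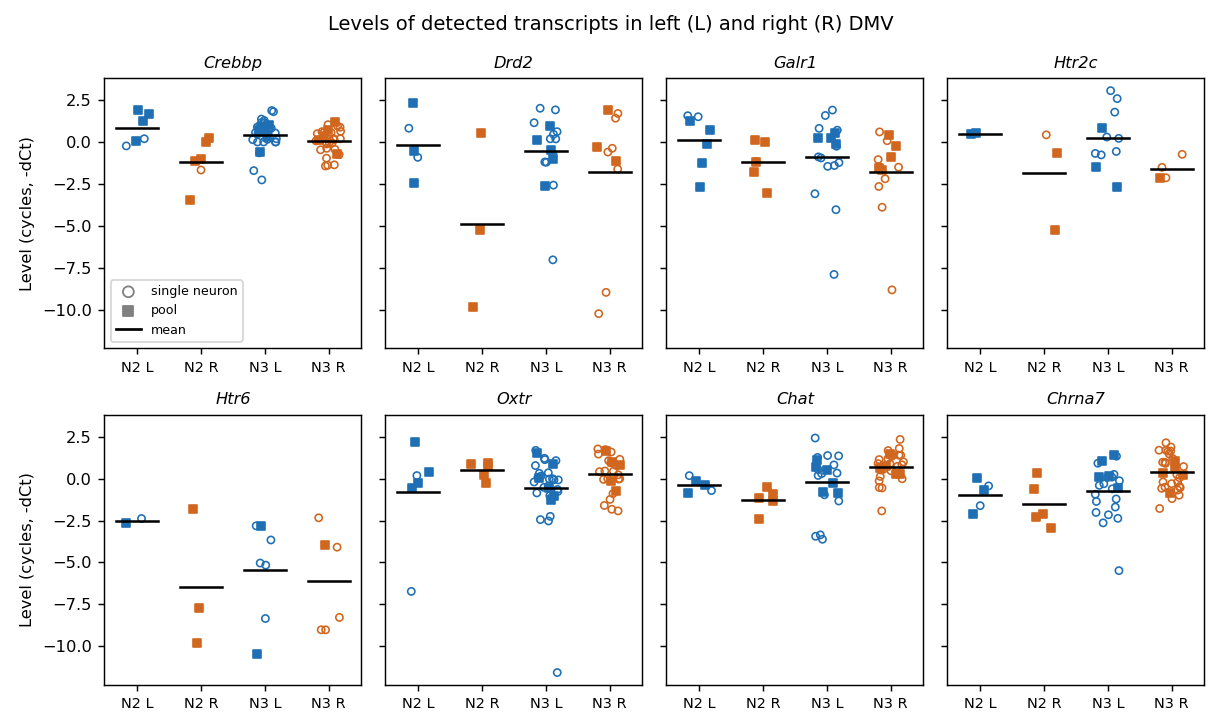
Level of detected transcripts (cycles, -dCt, higher for more transcript) in left and right samples of N2 and N3 for the 6 genes ranked by level and for Chat and Chrna7; open circles are single neurons, filled squares pools and black bars means. The Chat means are -0.18 (left) and 0.72 (right) in N3, and -0.37 and -1.25 in N2.

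When the 81 samples were grouped into 6 clusters by binned levels, 71 fell in 1 cluster, which held 31 of 33 left and 30 of 32 right samples of N3 and 5 of 7 left and 3 of 6 right samples of N2. The other clusters held 1 to 3 samples each, and the left sample of N3 with 149 assays stood alone. With so many samples in 1 cluster, this grouping says little about the sides. Ward linkage gave clusters of 24, 21, 18, 11, 6 and 1 samples. Its cluster of 24 held 11 of 33 left and 10 of 32 right samples of N3 and 2 of 7 left and 0 of 6 right samples of N2, a mean difference of 15.3 percentage points. Its cluster of 11, of which 9 were pools, held 2 of 33 and 3 of 32 samples of N3 and 2 of 7 and 4 of 6 of N2, a mean difference of -20.7. At the minimum of 84 assays the largest cluster held 9 of 14 left and 12 of 12 right samples of N3 and 3 of 3 and 3 of 4 of N2. The exact sign-flip test used for these shares cannot show a difference, as 2 animals allow no p below 0.5.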

How the data were processed

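The deposited table holds raw Ct values, here called a score, with 168 assays of 165 genes in 218 columns. The authors reverse transcribed and preamplified RNA of captured cells, ran BioMark qPCR and screened melt curves. Values under the limit of detection are blank. All 165 symbols matched RefSeq (GRCr8) with case ignored. Repeat runs and assays of one gene were averaged over the runs with a value, and samples under 42 assays were left out. Levels are -dCt, centred on the median of 35 widely detected genes. Left minus right was computed per animal (at least 2 samples on each side) and fitted in limma 3.58.1 (R 4.3.3) over 2 naive, 4 sham and 3 RIPC animals, with Benjamini-Hochberg adjustment over all genes tested. Both sides came from the same animal, so numbers pair them. Samples below detection were left out of levels. An animal without 2 values on each side was dropped for that gene. Named genes were those with the 8 smallest p by share, the 6 smallest by level, the 8 largest share differences in N3, and 13 fixed genes. The members, lists and fixed genes were chosen with earlier results of these data known. The share fit was also run on simulated counts. These held no spread between animals beyond counting, so that run says little about error rates in these data. Alternatives covered the minimum of assays, sample kind, runs, weights, filters, centring, pairing and each animal left out. The chip of each sample was not labelled, so it could not be tested as a batch. Wilson and Newcombe intervals used SciPy 1.17.1. They are over samples of 1 animal, so they cover counting error only and not the spread between animals. Intervals of genes named for a large difference in N3 are not adjusted for that choice. The text ranks no gene's level against another gene's.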

Additional observations from a re-analysis of the deposited data

Results flagged for a closer look

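Of 32 groups of 4 to 10 values examined for a value far from the rest, 1 held such a value, and chance gives about 1 in 20. The left minus right share of Oxtr was -12.5 percentage points in SHAM3 and 0 in the other sham animals, which had Oxtr in all of their samples. SHAM3 had Oxtr in 7 of 8 left and 4 of 4 right samples, so 1 sample without a Ct set the value.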

How the results depend on the processing

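The minimum of 84 assays called 1 gene for share (Lepr, 65.5 percentage points), whose own Ct counts toward that minimum. With first runs only, that minimum also called 1 gene (Lepr, 64.1). In all other alternatives the number of genes called for share stayed at 0. It stayed at 0 for level in all except single neurons only, which called 1 gene, Agtr1a, chosen here after its values were seen. Agtr1a was at -1.20 ± 0.89 cycles in 4 of 27 left and -7.69 ± 5.45 in 5 of 27 right single neurons of N3 (6.49 ± 1.43, limma adjusted p = 0.0140), the only naive animal in that fit, so that its spread was taken from the operated animals and the call says little. It was not tested in the fit over both animals. Leaving out each animal in turn gave 0 calls for share, level and both contrasts with surgery. Without the replicate block, which ignores that both sides came from one animal, the calls were also 0 (smallest limma adjusted p = 0.966 for share and 0.939 for level). With animals weighted by samples the smallest adjusted p was 0.206 for share and 0.0511 for level. A Fisher's exact test over the samples was also planned and run, but it takes samples of one animal as replicates of the side and is given no weight.

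Left minus right assays were 15.0 over 3 animals with no minimum, 4.34 at 84 assays, and -5.64 to 2.67 with an animal left out. Several differences changed sign. At the minimum of 84 assays, Chat with Gad1 or Gad2 was at -4.17, Th at 26.8, Chat with Th at 19.6, Dbh at 11.3 and Hrh4 at -2.98 percentage points. In pools only, Gad1 or Gad2 was at -8.33, Chat with Gad1 or Gad2 at -8.33, Th at 11.7, Chat with Th at 1.67, Fos at -3.33 and Dbh at 11.7. In single neurons only, where N3 was the only naive animal, Cacna1g was at 11.1 and Dbh at 29.6. With animals weighted, Cacna1g was at 4.34 and Dbh at 21.6. With N1 added, Ache was at 10.9, Adra1a 3.32, Cacna1g 14.0, Cartpt 7.08, Dbh 15.7, Hcrtr1 11.9 and Th 13.1. Hcn4, Cck and Trpv1 were each at 50 percentage points in N1, opposite to their means over N2 and N3. Adding N1 therefore made their differences smaller in size without a change of sign. On the arcsine scale Dbh was at 0.0081. Without N2 or without N3, Gad1 or Gad2 ranged from -11.9 to 13.9, Chat with Gad1 or Gad2 from -3.88 to 4.76, Th from -11.9 to 1.33, Fos from -2.38 to 11.8, Dbh from -35.7 to 32.95, Cacna1g from -16.7 to 8.52, Hcrtr1 from -26.2 to 11.9 and IL6r from -11.9 to 25.4. With undetected values set 1 cycle below the lowest level, Oxtr was at 0.011 cycles. The cause of these changes was not tested. The minimum of 63 assays and the fits at 84 assays without N2 or N3 or with first runs only were chosen after the data were seen. Precision was limited by 2 naive animals, one of them with 13 samples.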
